A study of Danio rerio with 24 samples.

Results

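The genes described are 8 zebrafish genes of families known to act at torn membranes and in the wound matrix. These are the annexin A1 genes anxa1a, anxa1b and anxa1c, the annexin A2 genes anxa2a and anxa2b, the annexin partner s100a10b and the fibronectin genes fn1a and fn1b. They were taken by name from the deposited table of 23219 genes, with earlier results of these data known, and all 8 passed the filter on low counts that left 22340 genes for the tests. The libraries are polyA-selected RNA of whole embryos of 2 genotypes, wild type and Meevs, the offspring of mothers mutant for eevs, the enzyme that starts the synthesis of the fish sunscreen gadusol. Embryos of each genotype were kept in the dark, given 450 J of ultraviolet B (UVB) or a mock exposure at 24 h post fertilisation (hpf), and collected 5 h later at 29 hpf or 24 h later at 48 hpf. Each of the 8 groups of genotype, treatment and time held 3 libraries. The labels give neither the lesion of eevs, nor the embryos' own alleles, nor the area to which the dose refers, and they do not say whether the 3 libraries of a group came from separate clutches, so that p-values measure the spread between libraries.

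Annexins bind phospholipid membranes when calcium rises, as it does where a plasma membrane is torn, and annexins A1 and A2 are known from mammalian cells to gather at such lesions and help to close them. Annexin A1 is also known in mammals as a brake on inflammation. Annexin A2 pairs with S100A10, an S100 protein that does not depend on calcium, and in mammals the pair binds plasminogen and its activators at the cell surface. Fibronectin is a glycoprotein of the extracellular matrix and of plasma that cells bind through integrins, and it forms part of the provisional matrix over which epithelium closes a wound.

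Total counts lay between 22395870 and 44691629 per library, and no 2 replicates agreed within sampling noise (chi-square per degree of freedom 4.20 to 23.0). Levels are given as CPM, counts scaled to a common library size after TMM correction, and differences as log2 fold changes ± SE from a fit of all 24 libraries. A gene was called at an adjusted p under 0.05 in edgeR's quasi-likelihood test, adjusted over all genes tested. The descriptions name 1 library series for wild type and another for Meevs, so genotype and library series cannot be told apart. On the first principal components 4 libraries stood apart from their groups, namely replicate 3 of Meevs mock and of wild type UVB at 5 h, replicate 1 of wild type UVB and replicate 3 of Meevs UVB at 24 h. In these whole embryos, more cells of a type and more RNA per cell cannot be told apart.

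Those of the 8 genes that were called at 5 h fell, and all called at 24 h but anxa1b rose. After 5 h 0 of the 8 rose in edgeR, in DESeq2 or at an unadjusted p under 0.05, and 3 fell in wild type (anxa1a, anxa1c and anxa2a) and 6 in Meevs (these 3 with anxa1b, s100a10b and fn1a). After 24 h 3 rose in wild type (anxa1c, anxa2a and fn1b), and in Meevs 5 rose (anxa1a, anxa2a, s100a10b, fn1a and fn1b) while anxa1b fell. Of all genes tested, 12.7% were called in wild type at 5 h (6.67% as higher and 6.06% as lower), and 34.4% in Meevs at 5 h (19.1% as higher and 15.3% as lower). At 24 h 2.24% were called in wild type (1.74% as higher and 0.506% as lower), and 20.4% in Meevs (11.5% as higher and 8.84% as lower). The CPM of UVB and mock libraries did not overlap, in either direction, for far more genes. In wild type this held for 28.7% of all genes at 5 h and 20.5% at 24 h, and in Meevs for 43.4% and 36.4%. The median log2 fold change of the 8 genes in wild type was -0.18 at 5 h and 0.21 at 24 h, and in Meevs -0.43 and 0.52, against medians of all genes between -0.0001 and 0.05. The count in wild type at 5 h depended on replicate 2 of the UVB group, without which 0 of the 8 genes were called.

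**Figure D1:**
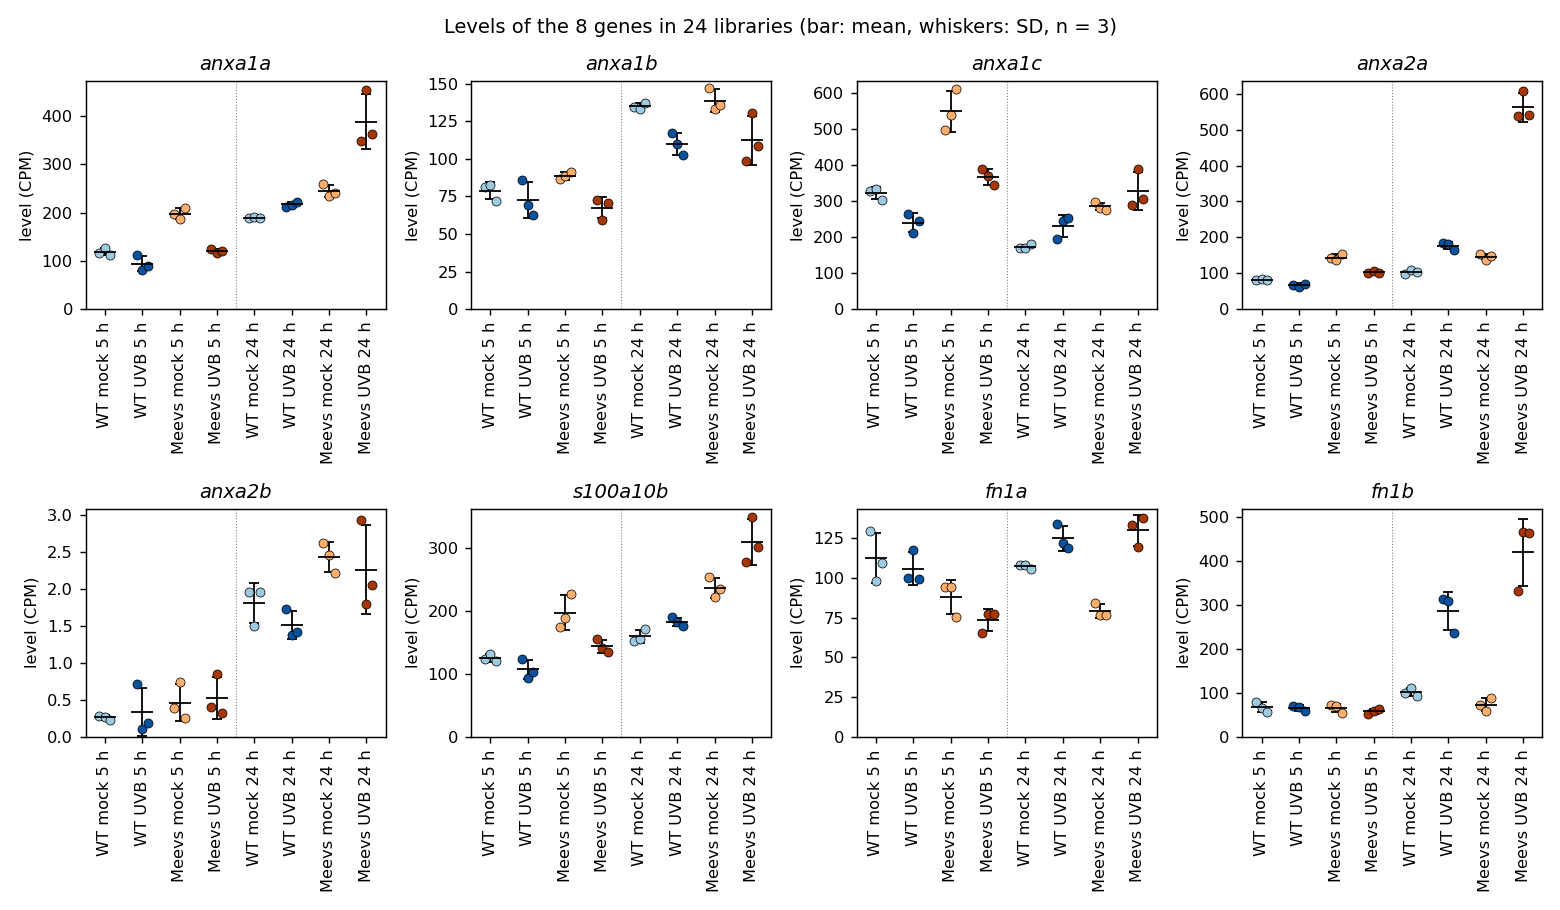
Level in CPM (vertical axis, linear, from 0) of each of the 8 genes in the 24 libraries, with the 5 h groups left and the 24 h groups right of the dotted line. Points are libraries, bars the group mean and whiskers the SD (n = 3). For anxa2a the 3 Meevs UVB libraries at 24 h lie between 537 and 608 CPM, above every other library.

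Of the annexin A1 genes, anxa1a (ENSDARG00000026726, GRCz11 chromosome 5, 25578181 to 25583325, minus strand) fell early and rose late. In wild type at 5 h its level was 116, 128 and 113 CPM in the mock libraries and 111, 80.6 and 89.3 CPM in the UVB libraries. The 3 UVB libraries lay below the 3 mock libraries, the first of them only just. The log2 fold change was -0.34 ± 0.09 (edgeR adjusted p = 0.0151), and it was not called without mock replicate 2 or UVB replicate 2. In Meevs at 5 h the level was 197, 187 and 209 CPM in mock and 125, 117 and 121 CPM in UVB embryos, a wide gap between groups. The change was -0.71 ± 0.09 (edgeR adjusted p = 1.3e-06). The difference of the Meevs from the wild type effect was -0.36 ± 0.13 and did not pass (edgeR adjusted p = 0.117).

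In wild type at 24 h anxa1a was at 188, 190.5 and 188 CPM in mock and 212, 216 and 222 CPM in UVB embryos. Its change of 0.20 ± 0.09 did not pass (edgeR adjusted p = 0.331). The groups did not overlap, as for 20.5% of all genes in this comparison. In Meevs the mock libraries held 258, 235 and 241 CPM and the UVB libraries 348, 454 and 363 CPM. Here the lowest UVB library lay well above the highest mock library, and the change was 0.66 ± 0.09 (edgeR adjusted p = 5.72e-06). The effect in Meevs exceeded that in wild type by 0.47 ± 0.13, which missed the threshold (95% interval 0.20 to 0.73, edgeR adjusted p = 0.056) and passed it in DESeq2 (adjusted p = 0.0202) and without Meevs UVB replicate 1 (edgeR adjusted p = 0.0316, with 0.0202 to 0.212 over all alternatives).

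The genes anxa1b (ENSDARG00000100095, chromosome 5, 65022287 to 65037525) and anxa1c (ENSDARG00000104359, 65009764 to 65021736) lie on the minus strand of the same chromosome with 550 bases between them, next to anxa1d. They took different courses. In wild type at 5 h anxa1c went from 328, 334 and 304 CPM in mock to 264, 212 and 245 CPM in UVB libraries, with no overlap. This fall of 0.42 on the log2 scale (log2 fold change -0.42 ± 0.10, edgeR adjusted p = 0.00649) was not called without UVB replicate 2, where the change was -0.34 with an edgeR adjusted p of 0.054. In Meevs at 5 h it went from 497, 538 and 611 CPM to 388, 369 and 344 CPM (-0.58 ± 0.10, edgeR adjusted p = 6.51e-05). Every UVB library was again below every mock library.

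At 24 h anxa1c was higher with UVB in wild type. The mock libraries held 169.9, 169 and 180.2 CPM and the UVB libraries 195, 246 and 252 CPM, of which the first lay nearest to the mock group. The change of 0.42 ± 0.10 passed (edgeR adjusted p = 0.0253), but it was lost in 5 of 6 fits that left out 1 library, all but that without UVB replicate 1 (adjusted p up to 0.169). In Meevs the groups overlapped, at 297, 281 and 276 CPM in mock and 289, 388 and 307 CPM in UVB libraries, and the change of 0.20 ± 0.10 did not pass (edgeR adjusted p = 0.17). The genotypes' effects on anxa1c differed by -0.21 ± 0.14 (95% interval -0.51 to 0.09).

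The course of anxa1b had no late rise. In Meevs its level at 5 h was 86.3, 88.3 and 91.4 CPM in mock and 72.8, 59.5 and 70.3 CPM in UVB libraries, a fall with no overlap (-0.39 ± 0.10, edgeR adjusted p = 0.00315). At 24 h the level was 147, 133 and 136 CPM in mock and 98.3, 130.3 and 108 CPM in UVB embryos, again without overlap. UVB replicate 2, at 130.3 CPM, came close to the mock libraries. The change was -0.31 ± 0.10 (edgeR adjusted p = 0.0289), lost without mock replicate 1 or UVB replicate 1 (adjusted p up to 0.171). In wild type anxa1b was at 135, 133 and 137 CPM in mock and 117, 110.1 and 103 CPM in UVB libraries at 24 h. These did not overlap, as for 20.5% of all genes in this comparison, and the change of -0.29 ± 0.10 did not pass (edgeR adjusted p = 0.142). It did pass without the 4 libraries that stood apart (-0.36, edgeR adjusted p = 0.0358). At 5 h in wild type the groups overlapped and the change was -0.12 ± 0.10 (edgeR adjusted p = 0.467). The adjacent anxa1d, which is not among the 8 genes, went from 32.0 ± 4.22 to 26.6 ± 0.247 CPM in Meevs at 5 h (-0.26 ± 0.10, edgeR adjusted p = 0.0381) and was not called in the other 3 UVB comparisons. How reads shared by these neighbouring paralogs were counted is not stated.

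The gene anxa2a (ENSDARG00000003216, chromosome 25, 34013093 to 34027440, plus strand), which encodes the annexin that pairs with S100A10, rose late in both genotypes. In wild type at 24 h its level was 98.3, 108 and 102 CPM in mock and 184, 181 and 165 CPM in UVB libraries. In Meevs it was 153, 138 and 148 CPM in mock and 537, 608 and 541 CPM in UVB libraries. No group overlapped another here, and UVB raised the mean from 103 ± 4.76 to 176 ± 10.1 CPM in wild type and from 146 ± 7.85 to 562 ± 40.0 CPM in Meevs (mean ± SD, n = 3). The log2 fold changes were 0.78 ± 0.07 (1.72-fold, edgeR adjusted p = 4.17e-08) and 1.94 ± 0.07 (3.84-fold, edgeR adjusted p = 1.29e-16). By p-value anxa2a ranked 14 of the 22340 genes in wild type and 3 in Meevs.

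This late effect on anxa2a was 2.24-fold larger in Meevs than in wild type (log2 difference 1.16 ± 0.10, 95% interval 0.96 to 1.37, edgeR adjusted p = 3.5e-08), which ranked 5 of all genes. Over all 18 alternatives, among them leaving out any 1 library, the difference lay between 1.086 and 1.197. At 5 h anxa2a had gone the other way. It was at 80.0, 85.1 and 81.6 CPM in mock and 68.5, 61.2 and 70.9 CPM in UVB libraries of wild type, with no overlap. The fall (-0.30 ± 0.07, edgeR adjusted p = 0.00603) was not called without UVB replicate 2, where the change was -0.24 with an edgeR adjusted p of 0.0525. In Meevs it was at 141, 136 and 153 CPM in mock and 102, 107 and 99.8 CPM in UVB libraries, with a wider gap (-0.48 ± 0.07, edgeR adjusted p = 6.69e-06). The turn from fall to rise was itself tested as the 24 h minus the 5 h effect, at 1.08 ± 0.10 in wild type and 2.42 ± 0.10 in Meevs, where anxa2a ranked 1 of all genes by p-value.

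The second annexin A2 gene, anxa2b (ENSDARG00000053625, chromosome 7, 29518396 to 29534001, minus strand), had between 3 and 96 counts per library. At 5 h in wild type it was at 0.288, 0.273 and 0.226 CPM in mock and 0.709, 0.105 and 0.188 CPM in UVB libraries, which overlapped widely. None of its 4 UVB effects passed, with log2 fold changes between -0.26 and 0.32 and SE up to 0.54. At 5 h a change of the size of that in anxa2a was therefore not detectable at this depth. At 24 h the 95% intervals of anxa2b were -0.89 to 0.37 in wild type and -0.72 to 0.51 in Meevs. Both lay below the changes of anxa2a at 24 h, 0.78 in wild type and 1.94 in Meevs. The genes were not tested against each other. The level of anxa2b did differ by time. From 29 to 48 hpf it went from 0.262 ± 0.0327 to 1.81 ± 0.271 CPM in wild type mock embryos (2.76 ± 0.42, edgeR adjusted p = 1.92e-06) and from 0.458 ± 0.250 to 2.43 ± 0.201 CPM in Meevs mock embryos (2.39 ± 0.39, edgeR adjusted p = 7.85e-06).

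The partner s100a10b (ENSDARG00000025254, chromosome 16, 23397785 to 23399484, plus strand) had changes of the same sign as anxa2a. So had anxa1a, anxa1c, fn1a and fn1b, whether called or not. In Meevs at 5 h it was at 175, 189 and 228 CPM in mock and 156, 141 and 135 CPM in UVB libraries. At 24 h it was at 254, 222 and 234 CPM in mock and 277, 349 and 302 CPM in UVB libraries. Neither pair of groups overlapped. The changes were -0.46 ± 0.10 (edgeR adjusted p = 0.000702) and 0.38 ± 0.10 (edgeR adjusted p = 0.00573), the second lost without UVB replicate 2, the highest library (0.25, adjusted p = 0.0915). In wild type neither the change of -0.23 ± 0.10 at 5 h (edgeR adjusted p = 0.143) nor that of 0.19 ± 0.10 at 24 h (edgeR adjusted p = 0.392) passed, but the first did without UVB replicate 1 (-0.35, edgeR adjusted p = 0.039). At 24 h the wild type libraries lay at 153, 156 and 171 CPM in mock and 189.8, 182 and 177 CPM in UVB embryos, without overlap, as for 20.5% of all genes. The genotypes' effects at 24 h differed by 0.19 ± 0.14 (95% interval -0.10 to 0.48, edgeR adjusted p = 0.626). Its neighbour s100w, 4117 bases away and not among the 8 genes, went from 9.99 ± 0.756 to 4.86 ± 1.06 CPM in wild type at 5 h and from 9.06 ± 0.875 to 15.6 ± 0.733 CPM at 24 h. In Meevs s100w went from 17.2 ± 2.89 to 8.15 ± 1.71 CPM and from 16.1 ± 1.36 to 24.2 ± 3.14 CPM. It was called in each of these comparisons (edgeR adjusted p up to 0.00239).

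**Figure D2:**
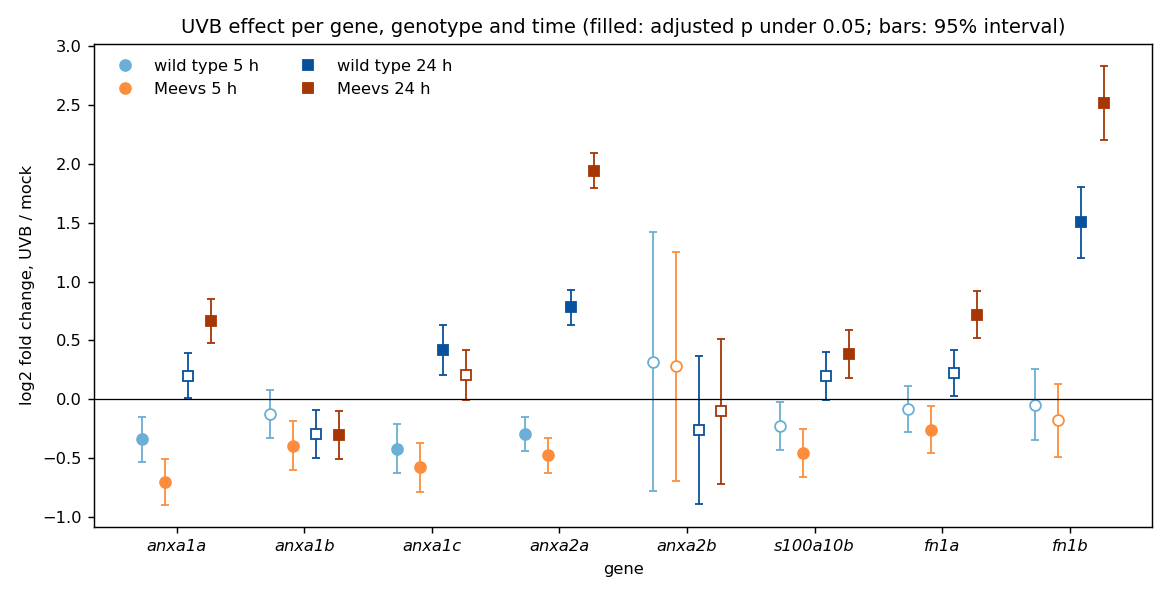
Log2 fold change of UVB against mock embryos (vertical axis) for each gene (horizontal axis), genotype and time, with 95% intervals from the edgeR fit. Filled symbols passed an adjusted p of 0.05. The 5 h symbols (circles) lie below 0 for every gene but anxa2b, and the 24 h symbols (squares) of anxa2a and fn1b lie highest, at 1.94 and 2.52 in Meevs.

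Of the fibronectin genes, fn1b (ENSDARG00000006526, chromosome 1, 5504128 to 5543065, minus strand) changed at 24 h. With fn1a it is known in zebrafish for building the matrix of the somite boundaries. In wild type the mock libraries held 101, 110.0 and 91.9 CPM and the UVB libraries 313, 308 and 237 CPM. In Meevs the mock libraries held 72.6, 59.5 and 88.1 CPM and the UVB libraries 332, 465 and 462 CPM. The UVB libraries were far above the mock libraries in both genotypes, and the lowest Meevs UVB library lay above the highest one of wild type. The log2 fold changes were 1.50 ± 0.15 (2.83-fold, edgeR adjusted p = 1.56e-07) and 2.52 ± 0.15 (5.73-fold, edgeR adjusted p = 1.47e-12).

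The effect on fn1b was larger in Meevs by 1.02 ± 0.21 (95% interval 0.59 to 1.44, edgeR adjusted p = 0.00479). It started from mock levels that were lower in Meevs, 73.4 ± 14.3 against 101 ± 9.07 CPM (-0.46 ± 0.15, edgeR adjusted p = 0.0101), a difference that was not called without Meevs mock replicate 2 (-0.33, adjusted p = 0.0857). After UVB the level was higher in Meevs, 420 ± 76.2 against 286 ± 42.5 CPM (0.55 ± 0.14, edgeR adjusted p = 0.0019). At 5 h fn1b did not pass in either genotype. Wild type libraries were at 78.7, 66.2 and 56.7 CPM in mock and 70.4, 67.4 and 57.6 CPM in UVB embryos, and Meevs libraries at 71.9, 70.0 and 54.2 against 50.9, 58.9 and 63.5 CPM, all overlapping. The end of fn1b overlaps by a few bases that of atic on the other strand, and the strand setting of the counting is not stated.

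The gene fn1a (ENSDARG00000019815, chromosome 9, 15362300 to 15424639, minus strand) was raised by UVB at 24 h in Meevs, from 84.1, 76.7 and 76.4 CPM in mock to 133, 119 and 138 CPM in UVB libraries. The groups were well apart (0.72 ± 0.10, 1.65-fold, edgeR adjusted p = 3.46e-06). In wild type it was at 108, 108 and 106 CPM in mock and 134, 122 and 119 CPM in UVB libraries, also without overlap, as for 20.5% of all genes. The change of 0.22 ± 0.10 did not pass (edgeR adjusted p = 0.289). The difference of the effects was 0.50 ± 0.14 (edgeR adjusted p = 0.0475). This call was lost in 10 of 12 fits that left out 1 library (all but those without wild type UVB replicate 1 or Meevs UVB replicate 2), with values between 0.43 and 0.55 and adjusted p up to 0.153, and without the 4 libraries that stood apart (0.49, adjusted p = 0.0556). At 5 h in Meevs fn1a was at 94.2, 94.0 and 75.4 CPM in mock and 65.5, 77.3 and 77.4 CPM in UVB libraries. These overlapped through mock replicate 3, and the change of -0.26 ± 0.10 passed narrowly (edgeR adjusted p = 0.0401). It was not called without mock replicate 1, mock replicate 2 or UVB replicate 1 (adjusted p up to 0.163). In wild type at 5 h the level was 129, 98.2 and 109 CPM in mock and 100.2, 118 and 99.5 CPM in UVB libraries, with overlap (-0.09 ± 0.10, edgeR adjusted p = 0.618).

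Whether the response differed between Meevs and wild type was tested as the difference of the UVB effects. Genotype cannot be told apart from library series in this test. At 24 h 3 of the 8 genes had a larger effect in Meevs (anxa2a, fn1b and fn1a, the last not stable as given above), where 2.4% of all genes were called, 1.66% as higher and 0.739% as lower. At 5 h 0 of the 8 passed in edgeR, 0 in DESeq2 and 1 at an unadjusted p under 0.05, where 5.12% of all genes were called (2.02% as higher and 3.09% as lower), and all 8 differences lay between -0.36 and -0.04. Without wild type UVB replicate 2 the difference of anxa1a at 5 h passed (-0.46, edgeR adjusted p = 0.0442). The closest to the threshold otherwise was anxa1a, and the interval of the anxa2a difference at 5 h was -0.39 to 0.03.

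**Figure D3:**
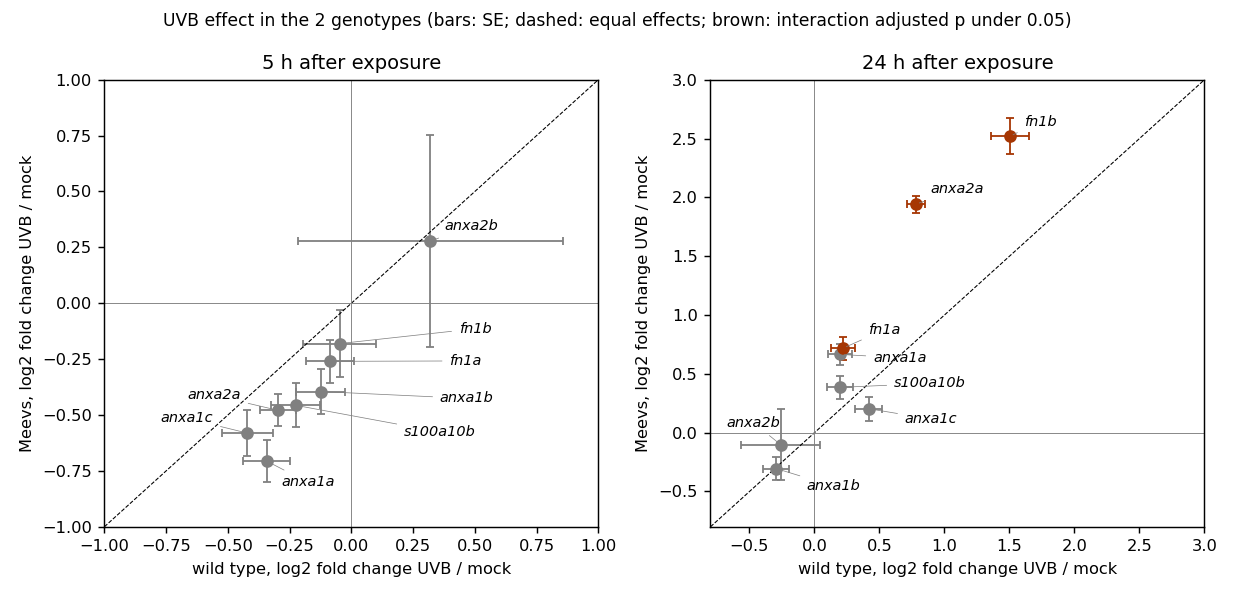
UVB effect as log2 fold change in wild type (horizontal axis) and in Meevs (vertical axis) at 5 h and 24 h, with SE as bars and a dashed line where both are equal. Brown points passed the test of the difference at an adjusted p of 0.05. At 24 h fn1b and anxa2a lie 1.02 and 1.16 above the dashed line, and at 5 h no gene passed.

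The time of collection was tested in the same way within each genotype. The 24 h minus the 5 h effect was higher for 4 genes in wild type, where 4.89% of all genes were called (3.26% as higher and 1.62% as lower), and for 6 genes in Meevs, where 29.4% were called (15.1% as higher and 14.3% as lower). In wild type these were anxa1a (0.54 ± 0.13), anxa1c (0.84 ± 0.15), anxa2a and fn1b (1.55 ± 0.21), and anxa1a was not called without UVB replicate 2 of the 5 h group (0.45, adjusted p = 0.052). In Meevs they were anxa1a (1.37 ± 0.13), anxa1c (0.78 ± 0.14), anxa2a, s100a10b (0.84 ± 0.14), fn1a (0.98 ± 0.14) and fn1b (2.70 ± 0.21). For s100a10b in wild type it passed without UVB replicate 1 of the 5 h group (0.54, adjusted p = 0.024). For anxa1b the difference did not pass in either genotype (-0.17 ± 0.14 and 0.09 ± 0.14).

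Without UVB the genotypes, which were also 2 library series, already differed in a large share of all genes, some of the 8 among them. Of all genes tested, 47.7% were called between Meevs and wild type mock embryos at 5 h (24.5% higher and 23.2% lower in Meevs) and 52.7% at 24 h (26.5% and 26.2%). Among the 8 genes anxa1a, anxa1c, anxa2a and s100a10b were higher in Meevs at both times and fn1a was lower, as was fn1b at 24 h. The largest of these at 5 h was anxa2a (0.80 ± 0.07), with 143 ± 8.91 CPM in Meevs against 82.2 ± 2.64 CPM in wild type. For anxa1c the Meevs mock mean at 5 h was 549 ± 57.7 CPM against 322 ± 15.95 CPM (0.77 ± 0.10, edgeR adjusted p = 1.21e-06). The lower level of fn1a, 87.8 ± 10.8 against 112 ± 15.8 CPM at 5 h (-0.35 ± 0.10, edgeR adjusted p = 0.00385), was not called without wild type mock replicate 1 (-0.24, adjusted p = 0.0548). After UVB, 50.3% of all genes differed at 5 h (27.3% higher and 23% lower in Meevs) and 55.8% at 24 h (28.5% and 27.4%). The same 4 annexin and S100 genes were higher and fn1a lower in Meevs at 5 h, and at 24 h these 4 and fn1b were higher, anxa2a by 1.67 ± 0.07, which ranked 2 of all genes. At 24 h after UVB the levels of fn1a, 130 ± 9.72 in Meevs and 125 ± 8.06 CPM in wild type, overlapped (0.06 ± 0.10, 95% interval -0.14 to 0.26).

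Between 29 and 48 hpf 6 of the 8 genes rose in wild type mock embryos and anxa1c fell, where 63.7% of all genes changed (30.2% rose and 33.5% fell). In Meevs mock embryos 4 rose and anxa1c fell, where 60.2% changed (28.7% rose and 31.5% fell). The rise of s100a10b in Meevs mock embryos (0.26, edgeR adjusted p = 0.0234) was lost without replicate 1 or 2 of the 5 h group (adjusted p up to 0.148). The fall of anxa1c was -0.89 ± 0.10 in wild type and -0.95 ± 0.10 in Meevs. After UVB 7 genes rose over this interval in each genotype, where 68.5% of all genes changed in wild type (34.1% rose and 34.4% fell) and 68.8% in Meevs (35% rose and 33.8% fell), and anxa1c did not pass (-0.06 ± 0.10 and -0.16 ± 0.10), the second passing without UVB replicate 2 of the 24 h group (-0.25, edgeR adjusted p = 0.0311). Its UVB libraries of both times overlapped, at 212 to 264 CPM and 195 to 252 CPM in wild type. The rise of fn1a in wild type UVB embryos (0.24 ± 0.10, edgeR adjusted p = 0.0287) was lost without the 4 libraries that stood apart (0.16, adjusted p = 0.19) and without replicate 1 or 3 of the 5 h or replicate 1 of the 24 h group (adjusted p up to 0.125).

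Ordered by mean level over the 8 groups, anxa2a ran from 66.9 ± 5.06 CPM in wild type UVB embryos at 5 h to 562 ± 40.0 CPM in Meevs UVB embryos at 24 h. For anxa1a the lowest group was again wild type UVB at 5 h (93.7 ± 15.7 CPM) and the highest Meevs UVB at 24 h (388 ± 57.3 CPM). Its wild type mock group at 24 h (189 ± 1.40 CPM) and Meevs mock group at 5 h (197 ± 11.1 CPM) were neighbours in that order and overlapped. For anxa1c the order was different, from 173 ± 6.15 CPM in wild type mock embryos at 24 h to 549 ± 57.7 CPM in Meevs mock embryos at 5 h. For fn1b the 6 lowest groups lay between 57.7 ± 6.36 and 101 ± 9.07 CPM, and the 2 UVB groups at 24 h stood above them.

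Over the 24 libraries the log2 CPM of anxa2a was most like that of anxa5b (Pearson's r = 0.978, Spearman's rho = 0.936), litaf and nccrp1 among 14077 genes with an established symbol. For fn1b the complement genes cfb (r = 0.974, rho = 0.839), c4b (r = 0.973, rho = 0.744) and c9 (r = 0.965, rho = 0.813) were most alike. For s100a10b the most alike were selenow2b (r = 0.978, rho = 0.971), anxa1a and glo1. Within the 12 UVB libraries, taken against the mean of their mock libraries, anxa2a was most like ctsk (r = 0.994, rho = 0.965), the collagen-degrading cathepsin K, and fn1b most like tmem176l.3a (r = 0.989, rho = 0.972). These libraries share groups and mock libraries, so the values are descriptions.

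Of 10 other annexins tested, 1 fell in wild type at 5 h (anxa3a, from 31.6 ± 1.81 to 25.0 ± 2.92 CPM) and was not called without mock replicate 1 or UVB replicate 2, and 1 rose at 24 h (anxa5b, from 30.1 ± 0.807 to 39.5 ± 3.04 CPM). In Meevs 4 fell at 5 h, with anxa11a from 104 ± 5.00 to 72.1 ± 0.892 CPM, and 5 rose at 24 h, with anxa5b from 43.9 ± 2.81 to 79.1 ± 6.46 CPM. The median log2 fold changes of this list were -0.13 and 0.10 in wild type and -0.29 and 0.26 in Meevs. The late count fell to 3 without Meevs mock replicate 2, mock replicate 3 or UVB replicate 2. For this and the following lists, the shares of all genes called as higher and as lower serve as a reference. In wild type these shares were 6.67% and 6.06% at 5 h and 1.74% and 0.506% at 24 h. For Meevs they were 19.1% and 15.3% at 5 h and 11.5% and 8.84% at 24 h.

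Of 13 other S100 genes, at 5 h 5 fell in wild type, 8 in Meevs, and 0 rose in either genotype in edgeR, in DESeq2 or at an unadjusted p under 0.05. At 24 h 3 rose in wild type, and 7 rose and 3 fell in Meevs. The gene s100u went from 60.1 ± 1.95 to 46.6 ± 2.70 CPM in wild type at 5 h (-0.37 ± 0.07) and from 42.2 ± 0.948 to 61.5 ± 2.36 CPM at 24 h (0.54 ± 0.07). In Meevs it went from 61.3 ± 4.52 to 37.8 ± 3.05 CPM and from 42.5 ± 2.52 to 73.1 ± 1.79 CPM. The late falls in Meevs were those of s100t (-0.98 ± 0.14), s100a11 (-0.67 ± 0.12) and icn2. The median of this list was -0.31 and 0.03 in wild type and -0.45 and 0.36 in Meevs. The 5 falls in wild type became 3 without UVB replicate 2. The gene s100a10a, on this list, was not called in any UVB comparison.

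Among 19 fibronectin receptors and adaptors, 7 fell and 1 rose in wild type at 5 h, and 9 fell and 2 rose in Meevs. The largest early fall with UVB in Meevs was in tln1, which encodes the talin that links integrins to actin, from 90.0 ± 9.28 to 42.3 ± 3.96 CPM (-1.09 ± 0.09, edgeR adjusted p = 8.03e-10). The syndecan gene sdc4, a co-receptor for fibronectin, rose at 5 h in both genotypes (0.21 ± 0.06 and 0.37 ± 0.06). At 24 h 0 of 19 were called in wild type in edgeR and in DESeq2, with 3 at an unadjusted p under 0.05. In Meevs 4 rose (3 in every alternative), among them sdc4 (0.51 ± 0.06) and itgb3b (0.96 ± 0.20), an integrin beta 3 gene, and itgb1b.2 fell from 21.3 ± 0.846 to 8.83 ± 0.468 CPM. The medians were -0.20 and 0.07 in wild type and -0.21 and 0.11 in Meevs. The 7 early falls in wild type became 3 without mock replicate 1 and 2 without UVB replicate 1, and the early rise of sdc4 in wild type was not called without mock replicate 1, mock replicate 3 or UVB replicate 2. The 2 early rises in Meevs became 1 without mock replicate 3, UVB replicate 2 or UVB replicate 3, and the late fall there was joined by 1 other without mock replicate 1.

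Of 16 genes of the wound matrix, the fall of postnb, a periostin gene, was the 1 call of edgeR in wild type at 5 h (532 ± 30.9 to 425 ± 59.1 CPM), and the rise of thbs1a, a thrombospondin, the 1 call of edgeR at 24 h (25.3 ± 1.81 to 35.5 ± 2.30 CPM). In Meevs 2 rose and 4 fell at 5 h, against 19.1% and 15.3% of all genes. At 24 h 5 rose and 3 fell there, against 11.5% and 8.84% of all genes. The late rises held the 3 fibrinogen genes fga, fgb (153 ± 20.9 to 390 ± 33.1 CPM) and fgg, with thbs1a (26.8 ± 2.64 to 67.2 ± 5.25 CPM) and thbs1b, and the falls those of postnb, sparc and vtna. The medians were 0.01 and 0.11 in wild type and 0.08 and 0.12 in Meevs. At 24 h in wild type DESeq2 called 2 as lower where edgeR called 0, and edgeR called 1 without UVB replicate 1. The call of postnb in wild type was lost without mock replicate 2 or UVB replicate 1, 2 genes were called as higher without mock replicate 1, and the 2 early rises in Meevs became 0 without mock replicate 3 and 1 without any UVB library. Of these genes fga, fgb, fgg and thbs1a also had a larger UVB effect in Meevs than in wild type at 24 h, and 0 a smaller one. In this test 1.66% of all genes were called as higher and 0.739% as lower.

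The plasminogen system is the cascade that the annexin A2 pair binds in mammals. Of 10 of its genes 0 were called in wild type at 5 h in edgeR, in DESeq2 or at an unadjusted p under 0.05. At 24 h in wild type 0 were called in edgeR and in DESeq2, with 3 at an unadjusted p under 0.05. In Meevs 3 rose at 5 h, among them serpinf2b, which encodes an antiplasmin, from 26.5 ± 3.34 to 36.5 ± 3.48 CPM, and serpine2 fell from 38.3 ± 1.78 to 31.7 ± 0.550 CPM. At 24 h 5 rose there, with plg, plasminogen itself, from 89.0 ± 9.19 to 159 ± 17.2 CPM (0.84 ± 0.10) and plat, a plasminogen activator, from 2.96 ± 0.180 to 6.33 ± 1.69 CPM (1.099 ± 0.16). Between the genotypes the late effects on plg (0.64 ± 0.14, edgeR adjusted p = 0.0112) and plat (0.82 ± 0.22, edgeR adjusted p = 0.0442) differed. The medians were 0.001 and 0.14 in wild type and 0.16 and 0.45 in Meevs. Of all genes in Meevs, 19.1% rose and 15.3% fell at 5 h, and 11.5% rose and 8.84% fell at 24 h.

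Of 13 membrane repair partners, 5 fell in wild type (3 without UVB replicate 1) and 9 in Meevs at 5 h. The calpain gene capn2b went from 79.7 ± 5.25 to 30.7 ± 2.86 CPM in Meevs (-1.38 ± 0.08, edgeR adjusted p = 4.89e-13) and the myoferlin gene myof from 33.3 ± 1.64 to 17.2 ± 1.28 CPM. At 24 h cav1, the caveolin gene, rose in wild type (0.29 ± 0.07). In Meevs 8 rose and capn2b fell, with myof from 30.1 ± 0.482 to 47.1 ± 3.86 CPM and ahnak, a giant scaffold protein that binds the annexin A2 pair in mammals, from 354 ± 17.7 to 490.5 ± 43.6 CPM. The 8 late rises became 3 to 5 when any 1 of the 6 libraries was left out and 4 without the libraries that stood apart, and the rise of cav1 was lost without mock replicate 1 or 3 or UVB replicate 2 or 3, and with DESeq2 size factors. With only the compared groups 4 rose in wild type at 24 h. Without Meevs UVB replicate 3 the late falls were 2. The medians were -0.20 and 0.11 in wild type and -0.44 and 0.17 in Meevs. Of all genes, 6.06% fell in wild type at 5 h and 1.74% rose at 24 h. For Meevs 15.3% fell at 5 h, and 11.5% rose and 8.84% fell at 24 h. In the lists without wound matrix and plasminogen genes, the genotypes' difference at 24 h was called higher for anxa5b and sdc4 and lower for itgb1b.2. It was called for 0 of 13 other S100 genes and 0 of 13 membrane repair partners. At 5 h all calls were lower, against 2.02% of all genes as higher and 3.09% as lower. They were 1 annexin, 1 S100 gene, 3 receptors and adaptors, 1 wound matrix gene and 2 membrane repair partners.

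**Figure D4:**
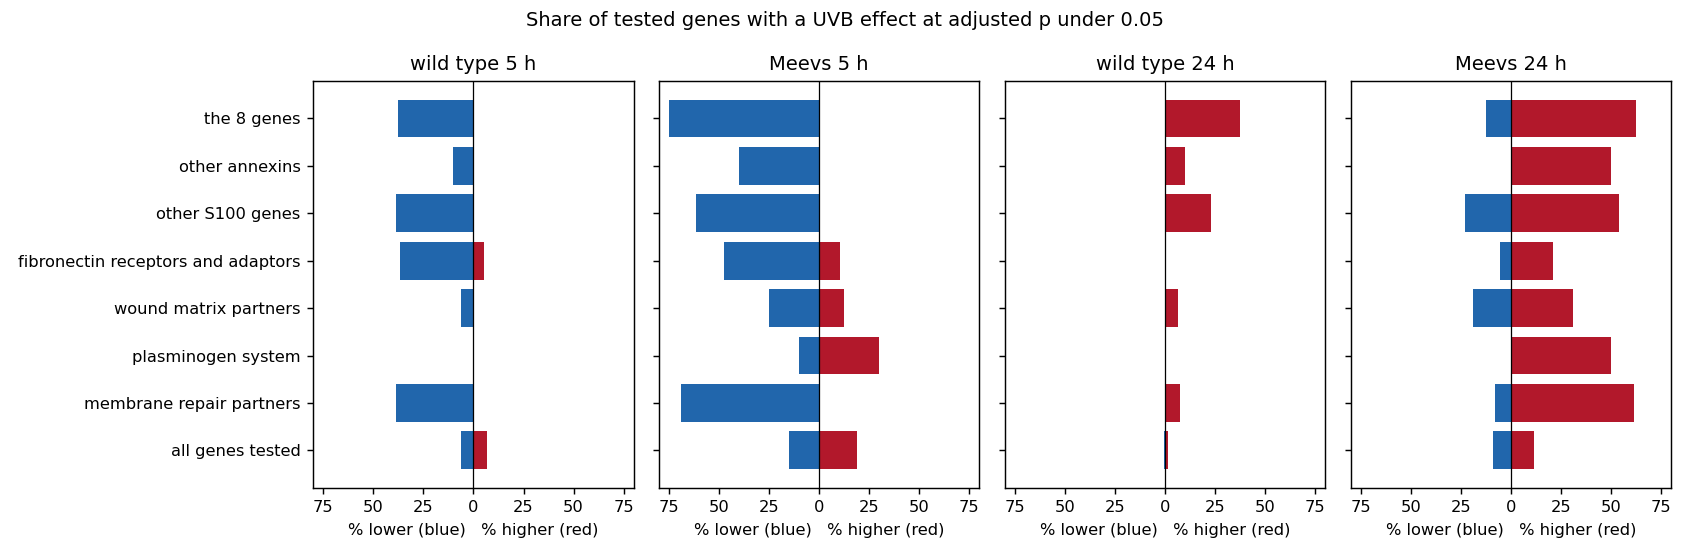
Share of tested genes with a UVB effect at an adjusted p under 0.05 (horizontal axis, per cent, lower to the left in blue and higher to the right in red) for the 8 genes, the 6 lists and all genes tested, in each genotype and time. Bars of the 8 genes and of the other annexins point left at 5 h, and mostly right at 24 h.

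Markers of the cells that could hold these transcripts moved in the same libraries. All markers of the 9 cell type lists were detected in every group. The summed level of 9 periderm markers was 23995 to 27812 CPM in Meevs mock and 16929 to 23469 CPM in Meevs UVB libraries at 24 h, and that of 7 basal keratinocyte markers was 2960 to 3541 and 1145 to 1568 CPM. In these UVB libraries anxa1a, anxa2a, s100a10b, fn1a and fn1b were higher and anxa1b lower, and anxa1c and anxa2b were not called. The single markers there did not all follow these sums, since 3 periderm markers (evpla, cldne and krt17) rose and 4 fell, and 2 basal keratinocyte markers (itgb4 and tp63) rose and 3 fell, with list medians of -0.29 and 0.05. At 5 h in Meevs the periderm sum was 26291 to 28172 CPM in mock and 18015 to 19320 CPM in UVB libraries, and the basal keratinocyte sum 789 to 905 and 519 to 573 CPM. Of the markers, 6 of 9 and 6 of 7 fell there and 0 rose. In these libraries anxa1a, anxa1b, anxa1c, anxa2a, s100a10b and fn1a were also lower, and anxa2b and fn1b were not called. In wild type the periderm sum was 18717 to 20441 against 14741 to 17398 CPM at 5 h and 23232 to 24684 against 17653 to 20581 CPM at 24 h. The wild type basal keratinocyte sum was 532 to 567 against 403 to 452 CPM at 5 h and 2068 to 2217 against 1398 to 1495 CPM at 24 h. Single markers did not all follow here either. At 5 h 4 periderm and 3 basal keratinocyte markers fell in wild type and 0 rose. At 24 h 1 periderm marker (cyt1) fell and 2 rose, with a median of -0.25. Of the 7 basal keratinocyte markers 2 (col17a1a and krtt1c19e) fell then and 0 rose, with a median of 0.02. The part of these shifts in the results was not tested.

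Macrophage and neutrophil markers, 11 in number, summed to 101 to 111 CPM in wild type mock and 127 to 145 CPM in UVB libraries at 24 h. In Meevs they summed to 135 to 156 and 125 to 149 CPM, overlapping. Of the 11 at 24 h, 2 (mpx and ptprc) rose and 0 fell in wild type, and 1 rose and 1 fell in Meevs. At 5 h the sum of the 11 was 69.8 to 93.3 CPM in Meevs mock and 43.8 to 49.9 CPM in UVB libraries, and 48.8 to 59.0 against 42.8 to 51.4 CPM in wild type. Of these markers 7 fell and 0 rose in Meevs at 5 h, and 0 were called in wild type. Fibroblast and fin mesenchyme markers (7 genes) summed to 1357 to 1829 CPM in Meevs mock and 1113 to 1224 CPM in UVB libraries at 24 h, with 2 of the 7 (twist1a and prrx1a) higher, 3 (dcn, col1a2 and and1) lower and a median of -0.02. They overlapped in wild type at 1615 to 1707 and 1662 to 1783 CPM. At 5 h they summed to 1079 to 1247 against 635 to 749 CPM in Meevs and 970.4 to 1102 against 716 to 820.2 CPM in wild type. In each genotype 3 of the 7 (dcn, col1a2 and and1) were lower then and 0 higher, with medians of -0.33 and -0.13. The vascular endothelium sum (6 genes) was 145 to 160 CPM in Meevs mock and 175 to 179 CPM in UVB libraries at 24 h, with 3 of the 6 higher and 0 lower. The sums of notochord, hatching gland, skeletal muscle and neuron markers at 24 h in Meevs were 427 to 456 against 381 to 421 CPM, 137 to 266 against 366 to 509 CPM, 15937 to 21952 against 16641 to 22841 CPM, and 1407 to 1467 against 1102 to 1265 CPM. Of these markers, 1 rose and 1 fell for notochord, the rise being that of cav1, also counted above as a membrane repair partner. For hatching gland 5 symbols matched 8 genes, of which 5 rose and 0 fell. For skeletal muscle 0 were called, and for neuron 3 of 5 fell and 0 rose. The part of these cell types in the results was not tested.

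Gene span also moved with the UVB effect at 5 h. Genes that span up to 10 kb, the class of anxa1a and s100a10b, had a median log2 fold change of 0.08 in wild type and 0.15 in Meevs. The changes of anxa1a were -0.34 and -0.71. Those of s100a10b were -0.23, which was not called, and -0.46. For the class of 10 to 50 kb, which holds the other annexins among the 8 genes and fn1b, it was 0.02 and 0.08. For the class of 50 to 200 kb it was -0.14 and -0.22, and the changes of fn1a, in this class, were -0.09 and -0.26. The part of gene span in the results was not tested.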

How the data were processed

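Whole zebrafish embryos were sequenced as directional polyA libraries. The deposited table holds raw counts of reads per gene, whole numbers without normalization. The submitters' processing notes name the build GRCz11 and, without settings, the counter featureCounts 1.6.3, the aligner STAR 2.7.9a, the trimmer cutadapt 1.16 and the test DESeq2 1.36.0. Per the file headers, the authors' comparison tables give log2 fold changes and adjusted p-values. For the 8 genes and 4 UVB comparisons, 32 of 32 calls in the authors' deposited tables were the same as those made here, and log2 fold changes differed by at most 0.0921.

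Counts were scaled by TMM, filtered with filterByExpr (879 genes removed) and fitted with edgeR 4.0.16 in R 4.3.3, with 1 mean per group over all 24 libraries. Contrasts were tested by quasi-likelihood F-tests with Benjamini-Hochberg adjustment over 22340 genes. The SE is the log2 fold change divided by the square root of F. Principal components used log2 CPM with a prior count of 2. The method was tested on simulated data. The 8 genes, the 6 lists and the marker lists were chosen with earlier results of these data known. Named were all 8 genes, for each list up to 2 genes per direction and UVB contrast with the smallest adjusted p, and for likeness the 3 genes of highest correlation (mean log2 CPM of 1 or more). The genes fga, fgg, icn2, vtna, anxa1d, s100a10a and s100w were named after their values were seen. So were the single cell type markers, which were named by their calls. Listed symbols that matched no gene of the table (anxa7, anxa8, anxa9, anxa14, tnca, tncb, plaur, ahnak2, mg53 and trim72) were left out, and 1 gene of the plasminogen list is not reported here. Replicate numbers were checked for pairing by correlating deviations from group means. Alternatives were DESeq2 size factors, DESeq2 1.42.0, no filter, only the compared groups and the replicate number within each genotype as a block. Other alternatives left out each library in turn, or 4 libraries (chosen after seeing the data).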

Additional observations from a re-analysis of the deposited data

Results flagged for a closer look

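The UVB effect differed between the genotypes at 24 h for anxa2a (1.16 ± 0.10), fn1b (1.02 ± 0.21) and fn1a (0.50 ± 0.14, edgeR adjusted p = 0.0475), larger in Meevs by the test of the difference itself. The call of fn1a was not stable and passed in 6 of 18 alternatives (adjusted p up to 0.153). Wild type and Meevs libraries carry different library series names, which cannot be told apart from genotype.

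The UVB effect differed between the times in wild type for anxa1a (0.54), anxa1c (0.84), anxa2a (1.08) and fn1b (1.55), each as the 24 h minus the 5 h log2 fold change. The call of anxa1a was lost without UVB replicate 2 of the 5 h group (edgeR adjusted p = 0.052). In Meevs it differed for anxa1a (1.37), anxa1c (0.78), anxa2a (2.42), s100a10b (0.84), fn1a (0.98) and fn1b (2.70). The embryos collected at the 2 times also differed in stage.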

How the results depend on the processing

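All 16 counts of called genes among the 8 stayed within 1.5 times in the 6 settings that left out no single library (DESeq2 size factors, DESeq2, no filter, only the compared groups, the replicate block and without the 4 libraries that stood apart). With each library left out in turn, the count for wild type at 5 h lay between 0 and 4 (0 without UVB replicate 2) and that for the genotypes' difference at 5 h between 0 and 1. Same-numbered libraries correlated in their deviations at -0.0828 to 0.107. In wild type at 24 h each of the 3 correlated best with its own number (0.0566 to 0.107), a hint from the data and not from the design, with 2 of 3 under the limit of 0.1, so the numbers were not taken as pairs. With the replicate block the calls of anxa1c in wild type at 24 h (adjusted p = 0.0521) and fn1a in Meevs at 5 h (0.0589) were not made. Nor was that of the fn1a difference at 24 h (0.0774). The block was set within each genotype, so this fit cannot compare levels between the genotypes. Its counts and values for Meevs minus wild type are therefore no check. Fitting only the compared groups ended anxa1a in wild type at 5 h (adjusted p = 0.0529) and added anxa1b in wild type at 24 h (0.0186), anxa2b between UVB embryos at 24 h (0.0415) and the anxa1a difference at 24 h (0.0377), which DESeq2 size factors added too (0.0493). Without the 4 libraries anxa1b differed between UVB embryos at 5 h (0.0456), and without wild type UVB replicate 1 anxa2b did (1.84, adjusted p = 0.00331). With only the compared groups the filter on low counts removed anxa2b for UVB at 5 h in either genotype and between mock embryos at 5 h. Why calls changed between settings was not tested.

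Of the values with another sign, 35 over 17 results, 0 were called in either fit. With the block these were fn1b (0.086, mock) and anxa1b (0.0010, UVB) for Meevs minus wild type at 5 h, which that fit cannot estimate. Without the 4 libraries they were fn1b in wild type at 5 h (0.038), anxa2b in Meevs at 5 h (-0.039), the anxa1b difference at 24 h (0.040), fn1b between mock embryos at 5 h (0.081) and anxa1c over time in wild type UVB embryos (0.076). With 1 library left out, the UVB effects that crossed 0 were anxa2b (-0.76 to 0.67), fn1a (-0.17 to 0.028) and fn1b (-0.16 to 0.081) in wild type at 5 h and anxa2b (-0.38 to 0.79) in Meevs at 5 h. Differences between genotypes' effects that did so were anxa2b at 5 h (-0.69 to 1.05), anxa1b (-0.15 to 0.076) and anxa2b (-0.071 to 0.27) at 24 h, and between times anxa2b (-0.93 to 0.51) in wild type, and anxa1b (-0.022 to 0.18) and anxa2b (-0.89 to 0.23) in Meevs. For Meevs minus wild type they were fn1b in mock at 5 h (-0.15 to 0.088), anxa1b in UVB at 5 h (-0.20 to 0.038), anxa1b (-0.10 to 0.11) and fn1a (-0.0032 to 0.11) in UVB at 24 h. Over time they were fn1a in wild type mock (-0.15 to 0.049), anxa2a in Meevs mock (-0.0093 to 0.11) and anxa1c in wild type UVB embryos (-0.14 to 0.052).

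The count of all genes called in wild type at 5 h, 2842, became 1808 with only its 6 libraries and 4274 without the 4 libraries, and lay between 1373 and 3393 with 1 left out. With the compared groups only or the block, 1 wound matrix gene was called as higher in wild type at 5 h (2 without the 4 libraries) and 1 as lower at 24 h (1 without the 4 libraries), and with the compared groups only postnb was not called at 5 h and 1 of the fibronectin receptors and adaptors was called as lower in wild type at 24 h. The count of all genes in wild type at 24 h, 501, became 1189 without the 4 libraries and lay between 274 and 745. With 1 library left out, that for the genotypes' difference at 24 h, 536, lay between 355 and 472, and that for the times' difference in wild type, 1092, between 675 and 1432. Counts of 3 to 96 per library limited anxa2b.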
